A study of Mus musculus with 18 samples.

Results

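The potassium channel genes are the mouse genes whose symbols begin with Kcn. They encode the pore-forming subunits of potassium channels and the accessory subunits that bind them. Of the 54532 genes in the count table, 94 were chosen by symbol alone, and 5 further Kcn symbols (Kcnab3os, Kcnd3os, Kcnmb4os1, Kcnmb4os2 and Kcnq1ot1) were left out because they name opposite-strand or overlapping transcripts. By symbol stem the 94 genes fell into 30 voltage-gated pore subunits, 10 silent subunits, 8 calcium- or sodium-activated pores, 15 inward rectifiers, 14 K2P leak channels and 17 auxiliary subunits and regulators.

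The data are bulk RNA-seq libraries of frontal cortex at postnatal day 0, made from mouse pups mutant for both Rxrg and Rarb (dKO) and from control pups. The products of both genes are nuclear receptors of the retinoid system, which regulate transcription when ligand is bound. Each genotype was sampled in 3 regions, labelled orbital, medial and dorsal, with 3 libraries per group and 18 in all. Tissue was dissected from orbitofrontal, medial frontal and motor areas, and which of them is called dorsal is not stated. The labels give no sex, litter, strain or altered exons and do not say how many animals were used, so the p-values speak only of the spread among these libraries, and that spread may in part be technical. Title prefixes and index sequences placed the libraries in 6 rows of 3 regions. Replicate 1 of each group carried 1 prefix and replicates 2 and 3 carried another.

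Potassium channels let potassium leave or enter cells down its gradient and so set the resting potential and the shape and rate of action potentials. Voltage-gated pores repolarise neurons after a spike, calcium-activated pores produce the afterhyperpolarisation, and inward rectifiers and K2P channels hold the resting potential. In the newborn cortex neurons are still acquiring these currents, whereas Kcnj10, the inward rectifier Kir4.1, is best known from astrocytes and other glia, where it takes up extracellular potassium.

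Library totals ran from 28957325 to 93093398 assigned fragments, and the libraries of replicate 1 were the deepest. Rarb did not overlap between genotypes in any region, at 2.29 to 4.85 CPM (assigned fragments per 1e+06 of the library total) in dKO and 6.20 to 13.9 CPM in control orbital libraries, 1.19 to 2.96 CPM in dKO and 3.50 to 4.998 CPM in control medial libraries, and 2.25 to 3.10 CPM in dKO and 3.50 to 5.53 CPM in control dorsal libraries. Rxrg overlapped in orbital tissue, at 0.408 to 2.90 CPM in dKO and 2.35 to 21.4 CPM in control libraries. It did not overlap in medial tissue (0.377 to 1.69 CPM in dKO and 2.05 to 6.11 CPM in control libraries) or in dorsal tissue (0.691 to 1.33 CPM in dKO and 1.64 to 30.5 CPM in control libraries). The counted exons need not be the altered ones. All 9 control libraries and dKO replicate 2 expressed the Y-linked gene Ddx3y at 58.3 CPM or more, and dKO replicates 1 and 3 expressed Xist at 9.45 CPM or more, so sex was unequal between the genotypes. The tissue check was made with marker lists, and no neuronal marker was at 0 in all libraries. Because the tissue is bulk, fewer cells of a type and less RNA per cell cannot be told apart.

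A count was found for each of the 94 genes in at least 1 library. Of these, 76 averaged at least 1 CPM over the 18 libraries, 38 averaged at least 10 CPM, and 82 passed the filter on low counts and were tested. The 12 that did not pass (Kcna7, Kcna10, Kcne1, Kcng3, Kcnj1, Kcnk7, Kcnk15, Kcnk16, Kcnk18, Kcnmb1, Kcnmb3 and Kcnv2) held between 1 and 62 counts each, summed over the 18 libraries. Levels of different genes were compared per length, as CPM divided by exon length in kilobases (RPKM). On this scale the 94 genes summed to 243 to 317 RPKM per library. Auxiliary subunits took 32.6% of that level, voltage-gated pores 30.8%, K2P channels 12.9%, silent subunits 9.72%, inward rectifiers 8.92% and calcium- or sodium-activated pores 5.12%.

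**Figure D1:**
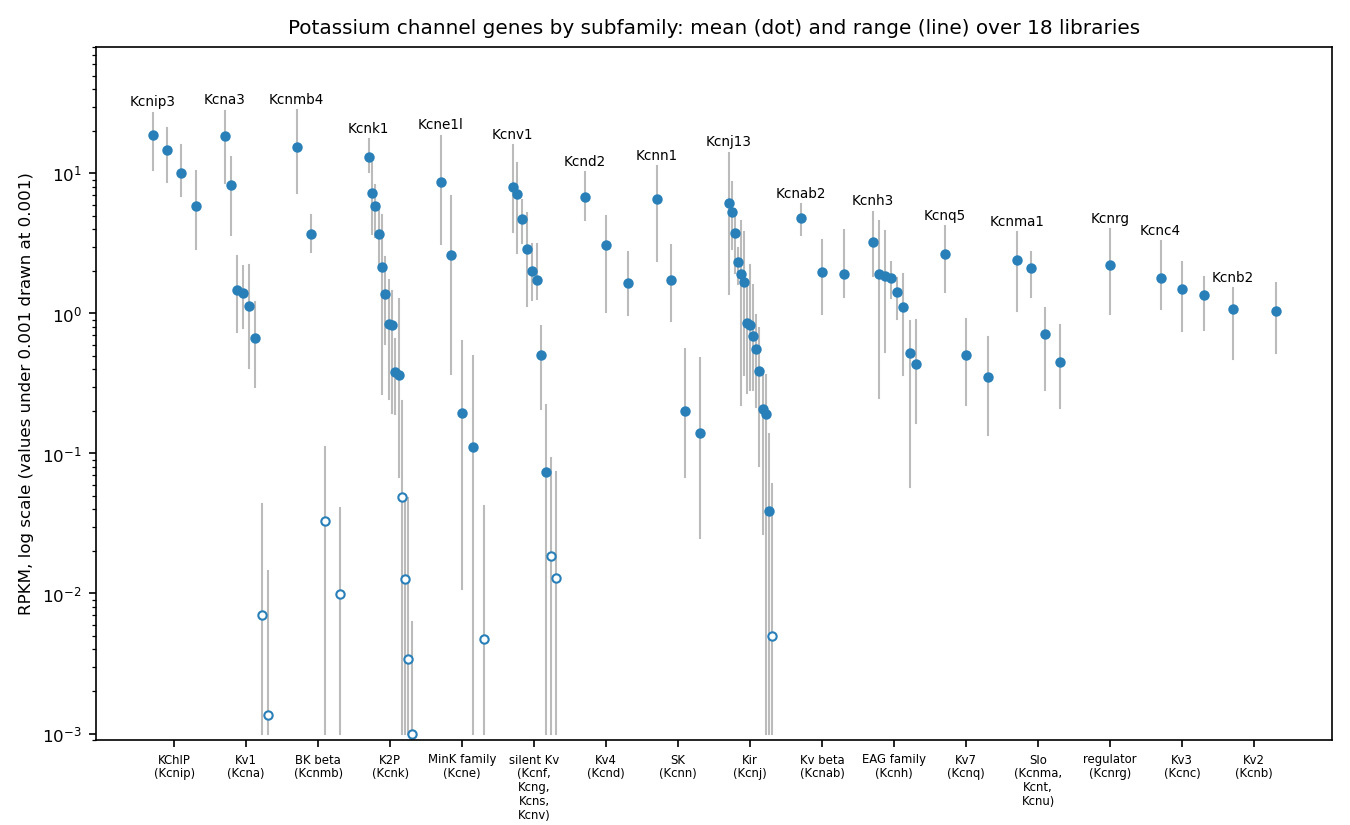
Mean RPKM of 91 genes over the 18 libraries (dot, log axis) with its lowest and highest library (line), by subfamily; open dots are genes that were not tested, and the highest of the genes drawn is named in each subfamily. Kcnip3 and Kcna3 stood highest at 18.8 and 18.6 RPKM, and most subfamilies held 1 or a few genes well above the rest.

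Among the voltage-gated pores the highest mean level was that of Kcna3, which encodes the Shaker-type subunit Kv1.3, at 18.6 RPKM (8.56 to 28.1 over libraries). Kcna6 (Kv1.6) averaged 8.33 RPKM. In the other voltage-gated subfamilies the leading genes were Kcnd2 (Kv4.2, an A-type pore) at 6.80 RPKM, Kcnh3 (Kv12.2) at 3.24 RPKM, Kcnc4 (Kv3.4) at 1.80 RPKM and Kcnb2 (Kv2.2) at 1.08 RPKM. Among the leading genes of these subfamilies, that of the Kv2 delayed rectifiers was therefore the lowest.

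Kcnv1, which forms no channel alone but modifies Kv2 pores, led the silent subunits at 8.06 RPKM. The activated pores were led by Kcnn1 (SK1) at 6.56 RPKM and by Kcnma1, the large-conductance BK pore, at 2.39 RPKM. Kcnj13 (Kir7.1), known from the choroid plexus and the retinal pigment epithelium, was the highest inward rectifier at 6.20 RPKM, but 49.1% of its counted exon bases are shared with Gigyf2 and the counting ignored strand, so its reads cannot be told apart from those of that gene. Kcnk1 (TWIK-1) led the K2P channels at 13.2 RPKM.

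The auxiliary subunits held 5 of the 10 highest genes among the potassium channel genes. These were the Kv4 partners Kcnip3 at 18.8 RPKM, Kcnip2 at 14.8 RPKM and Kcnip1 at 10.1 RPKM, the neuronal BK subunit Kcnmb4 at 15.3 RPKM, and Kcne1l (also called Kcne5), an X-linked member of the MinK family of single-pass accessory subunits, at 8.71 RPKM. Kcnab2 (a Kv beta subunit) averaged 4.80 RPKM and Kcnrg, a soluble regulator of Kv assembly, averaged 2.21 RPKM. Exon sharing also touched Kcna6 (39.6% of exon bases, with Gm26673) and Kcnmb4 (31.5%, with Kcnmb4os1 and Kcnmb4os2), so their levels are uncertain for the same reason.

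**Figure D2:**
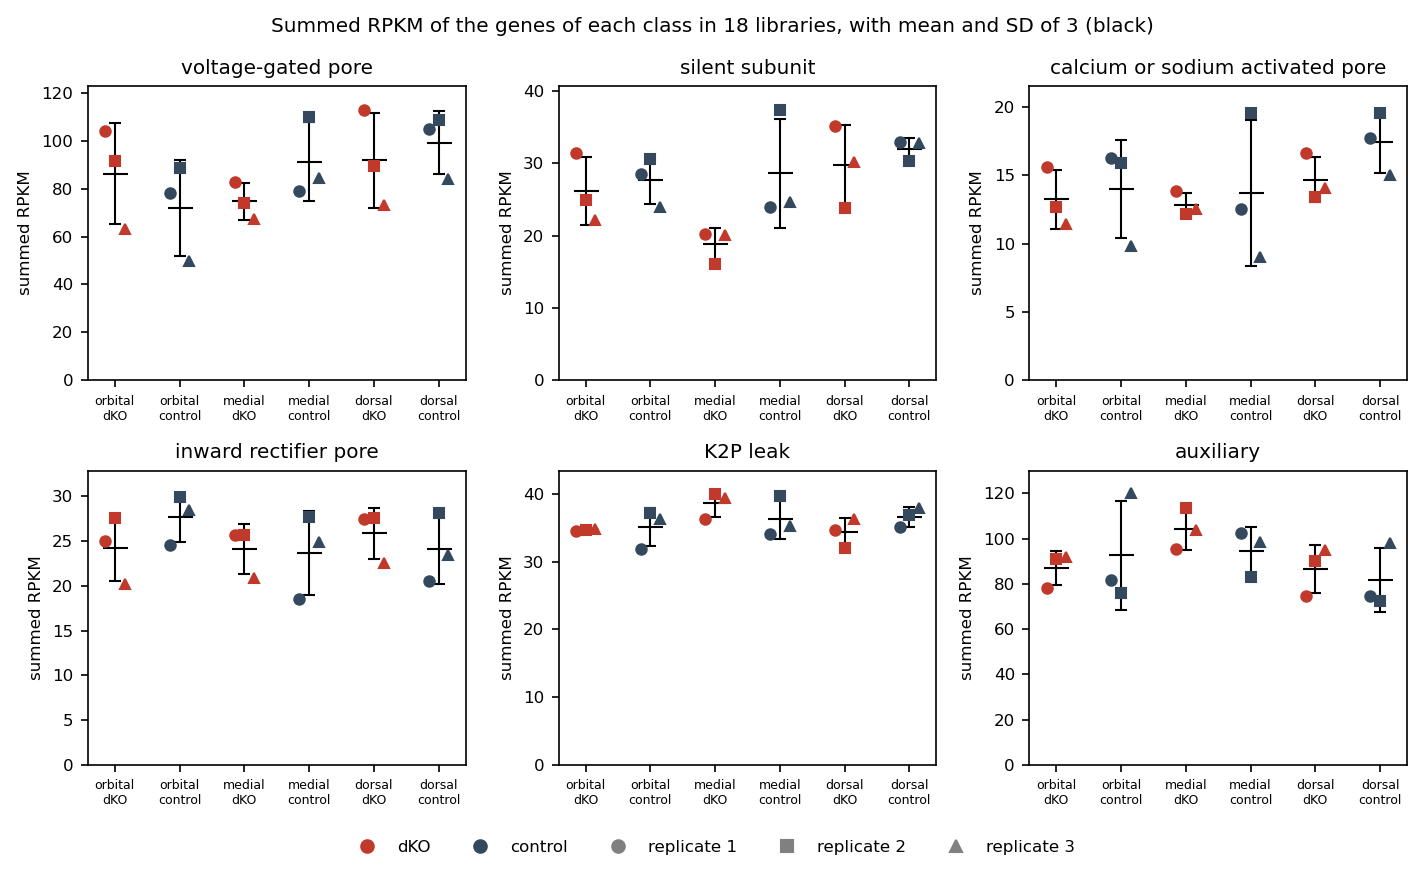
Summed RPKM of each functional class in the 18 libraries (points, with shapes for replicates and the mean and SD of 3 in black). Silent subunits lay at 16.1 to 20.2 RPKM in medial dKO libraries and 23.9 to 37.3 RPKM in medial controls, without overlap, whereas every other class overlapped between the genotypes in the medial region.

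Summed by class, voltage-gated pores came to 86.3 ± 21 RPKM in orbital dKO libraries and 72.1 ± 20 RPKM in orbital controls (SD, n = 3 each). The sums were 74.7 ± 7.8 RPKM in medial dKO libraries and 91.3 ± 16 RPKM in medial controls, and 91.9 ± 20 RPKM in dorsal dKO libraries and 99.2 ± 13 RPKM in dorsal controls. The genotypes overlapped in the orbital, medial and dorsal regions alike. A sum of this kind is set by its few highest genes, so each gene was also tested alone.

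In medial cortex the double mutants differed from controls in 2 potassium channel genes, Kcnn2 and Kcnj10, and both were higher in dKO. These 2 are 2.44% of the 82 tested, and over all genes tested 2.08% passed, 1.18% as higher, at an adjusted p of 0.05 (edgeR quasi-likelihood test with Benjamini-Hochberg adjustment over 18730 genes). No potassium channel gene passed as lower in medial dKO tissue. At an unadjusted p under 0.05, however, 18 were lower and 4 were higher, and the lower ones were 22% of those tested, against 8.17% of all genes, while the higher ones were 4.88%, against 6.86% of all genes. The median log2 fold change was −0.28 over the 82 genes, against −0.00 over all genes. Here and below, shares of all genes are not given for fits that left out a library or changed a setting, nor for DESeq2. Counts from those fits therefore cannot be read against a background. Without medial control replicate 1, 5 potassium channel genes passed. Without medial control replicate 2, medial control replicate 3 or medial dKO replicate 2, Kcnn2 alone of the pair passed.

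Kcnn2 (chr18:45268860-45686024, plus strand, GRCm38) encodes SK2, a small-conductance channel opened by intracellular calcium after spikes. It had 21.8, 17.1 and 22.5 CPM in medial dKO libraries, against 8.62, 8.44 and 8.16 CPM in medial controls. Every dKO library was above every control, and the 3 controls lay close together. The fitted log2 fold change was 1.20 (SE 0.204, adjusted p = 0.00759), and the direction held within each title prefix, at 1.33 for replicate 1 and 1.24 for replicates 2 and 3. Fitted on the 6 medial libraries alone, the value was 1.21 with an adjusted p of 0.0819.

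Kcnn2 in orbital tissue had 17.3, 14.9 and 10.2 CPM in dKO libraries, against 7.70, 6.43 and 8.23 CPM in controls. These groups did not overlap either, with a log2 fold change of 0.91 (SE 0.204) that missed the threshold (adjusted p = 0.136). In dorsal tissue it had 15.1, 16.2 and 11.3 CPM in dKO libraries, against 11.3, 11.5 and 12.0 CPM in controls, and the groups overlapped (log2 fold change 0.23, SE 0.202, adjusted p = 0.906). The difference of the dKO effect between medial and dorsal tissue was 0.98 (SE 0.266) and did not pass (adjusted p = 0.573).

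Kcnj10 (chr1:172341210-172374085, plus strand, GRCm38), encoding the glial inward rectifier Kir4.1, had 24.1, 22.4 and 17.5 CPM in medial dKO libraries, against 5.04, 1.21 and 1.46 CPM in medial controls. Every dKO library was above every control, and among the controls replicate 1 was the highest. The log2 fold change was 3.19 (SE 0.611, adjusted p = 0.0157), the largest positive one among the potassium channel genes tested in that region. It was 2.25 within the prefix of replicate 1 and 3.86 within that of replicates 2 and 3. The call was lost without medial control replicate 2 (adjusted p = 0.0755), medial control replicate 3 (0.067) or medial dKO replicate 2 (0.0518), with log2 fold changes of 2.94, 3.03 and 2.98. It was also lost with no term for the title prefix (log2 fold change 2.92, adjusted p = 0.061).

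In orbital tissue Kcnj10 had 12.8, 24.9 and 7.77 CPM in dKO libraries, against 7.73, 1.88 and 2.40 CPM in controls. In dorsal tissue it had 10.8, 19.6 and 11.8 CPM in dKO libraries, against 10.5, 2.24 and 3.21 CPM in controls. The groups did not overlap in either region, but replicate 1 of the controls came close to the lowest dKO library in both, and neither difference passed (log2 fold change 2.21, SE 0.592, adjusted p = 0.156 in orbital; 1.69, SE 0.584, adjusted p = 0.541 in dorsal). Within the prefix of replicate 1 the dorsal difference was 0.04, and within that of replicates 2 and 3 it was 2.48.

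Astrocyte markers and position were measured beside Kcnj10. The 6 astrocyte markers summed to 458 to 611 CPM in medial dKO libraries and 157 to 362 CPM in medial controls, without overlap, and 1 of them, Aldoc, passed as higher. In orbital tissue those sums were 390 to 527 CPM in dKO and 397 to 597 CPM in controls, with overlap. In dorsal tissue they were 306 to 405 CPM in dKO and 268 to 375 CPM in controls, also with overlap. The gene also lies 4.7 Mb from Rxrg on the same chromosome, and 2 of the 9 potassium channel genes on chromosome 1, Kcnj9 and Kcnj10, are within 10 Mb of it. The part of marker composition or of position in the Kcnj10 result was not tested.

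**Figure D3:**
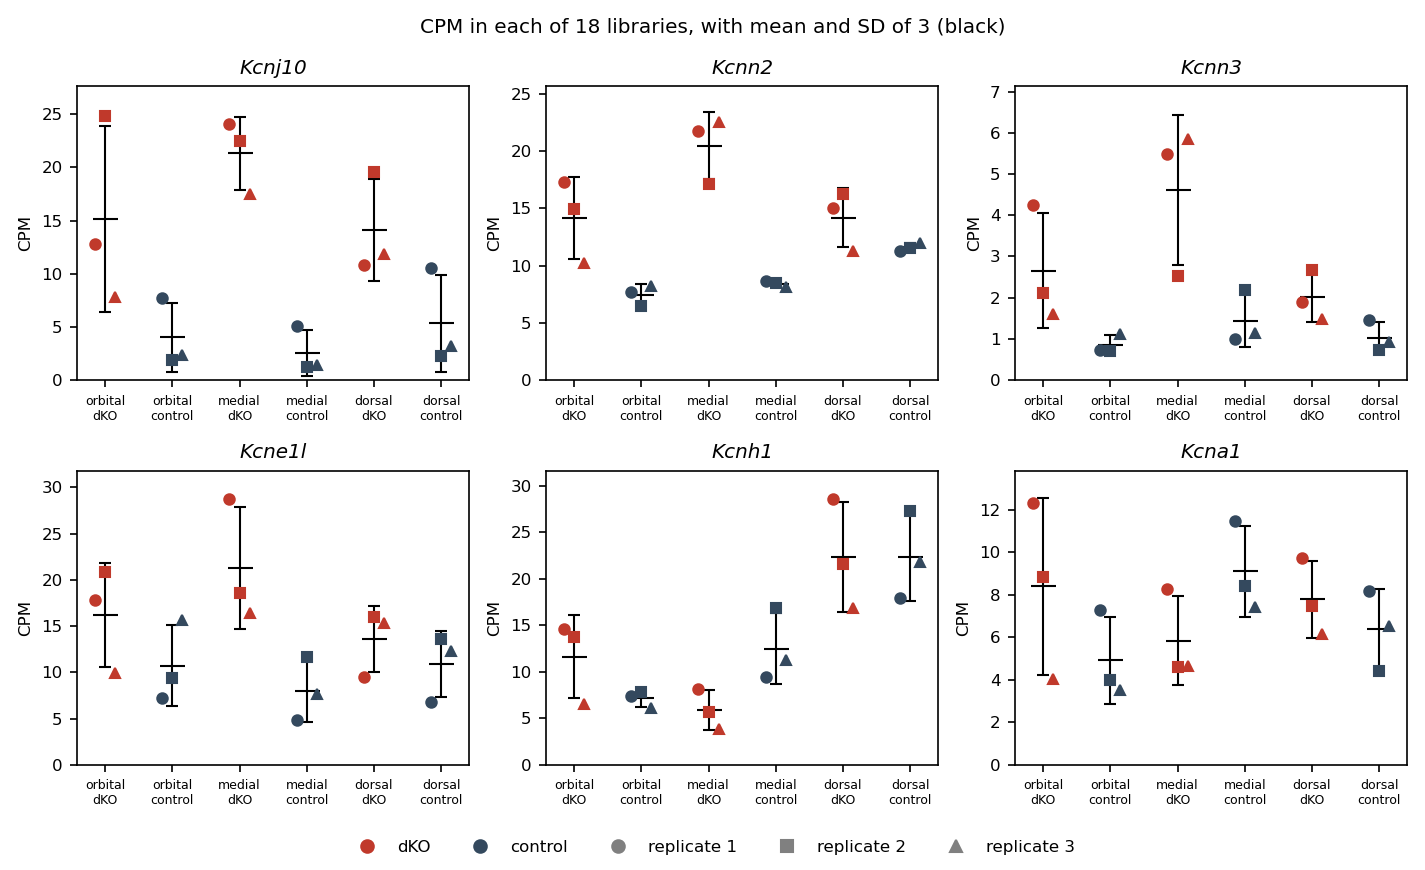
CPM of 6 genes in each of the 18 libraries (red, dKO; dark, control; shapes, replicates) with the mean and SD of 3 in black. Medial dKO libraries lay above medial controls for Kcnj10, Kcnn2, Kcnn3 and Kcne1l and below them for Kcnh1, and Kcnh1 was highest in dorsal tissue of both genotypes.

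Kcnn3 (SK3), a relative of Kcnn2, was the other gene whose dKO libraries lay above the controls in orbital, medial and dorsal tissue, though at a low level. It had 5.49, 2.53 and 5.85 CPM in medial dKO libraries, against 0.988, 2.18 and 1.15 CPM in medial controls. In orbital tissue it had 4.24, 2.12 and 1.599 CPM in dKO libraries, against 0.7404, 0.714 and 1.12 CPM in controls. In dorsal tissue it had 1.90, 2.68 and 1.476 CPM in dKO libraries, against 1.458, 0.725 and 0.913 CPM in controls. The dorsal groups were thus kept apart by a very narrow gap. By edgeR Kcnn3 passed in no region: the log2 fold changes were 1.58 in medial (SE 0.455, adjusted p = 0.0838), 1.57 in orbital (SE 0.465, adjusted p = 0.178) and 0.92 in dorsal tissue (SE 0.457, adjusted p = 0.761). DESeq2 called it in medial (adjusted p = 0.0129) and orbital tissue (adjusted p = 0.0328). Kcnn1, the most abundant SK gene per length, had a negative value in medial tissue that did not pass (log2 fold change −0.58, SE 0.411, adjusted p = 0.573).

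Kcne1l had 28.8, 18.6 and 16.4 CPM in medial dKO libraries, against 4.81, 11.7 and 7.61 CPM in medial controls. The groups did not overlap, and the log2 fold change of 1.41 (SE 0.362) fell just outside the threshold (adjusted p = 0.0528). All 4 tested members of the MinK family had positive values in medial tissue, with a median of 0.89, and by edgeR none passed. Kcne1l passed with DESeq2 (adjusted p = 0.00372), without the filter (adjusted p = 0.00573) and with replicate numbers as a block (adjusted p = 0.0388). Kcne1l is X-linked, and sex was unequal between the genotypes. The medial dKO library of replicate 2, which expressed Ddx3y, was at 18.6 CPM. With a sex term in the edgeR fit, chosen after seeing the data, Kcne1l did not pass in medial tissue. All controls expressed Ddx3y, so that term rests on the dKO libraries alone. The part of sex in the Kcne1l values was not settled by it.

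Of the 82 genes tested in medial tissue, 55 had negative values, and by edgeR none passed as lower. Voltage-gated pores made up 28 of the 82 and silent subunits 8. DESeq2 called Kcna6, Kcnc4, Kcnh1, Kcnh3, Kcnj6, Kcnj9, Kcnk4 and Kcnv1 as lower, and without the filter on low counts edgeR called Kcna6, Kcnh1 and Kcnv1. The shares of all genes called as lower under these 2 settings are not given, so these calls have no background. Of 28 voltage-gated pores tested in medial tissue, 22 had negative values, with a median of −0.38, and of 8 silent subunits 7 were negative, with a median of −0.54. Of the 8 Kcnh genes, 7 were among the negative ones. Kcnv1, the Kv2 partner, had 23.5, 21.2 and 17.4 CPM in medial dKO libraries, against 36.4, 73.1 and 28.8 CPM in medial controls. Those groups did not overlap (log2 fold change −1.24, SE 0.319, adjusted p = 0.0552), and control replicate 2 was far above the other two.

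Kcnh1, which encodes the ether-a-go-go pore Kv10.1, had 8.20, 5.64 and 3.88 CPM in medial dKO libraries, against 9.43, 16.8 and 11.2 CPM in medial controls (log2 fold change −1.20, SE 0.314, adjusted p = 0.0585). Kcnc4 (Kv3.4) had 3.92, 5.64 and 5.27 CPM in medial dKO libraries, against 6.51, 12.1 and 11.02 CPM in medial controls (log2 fold change −1.06, SE 0.275, adjusted p = 0.0563). The genotypes did not overlap for either gene. Kcnj9, the G-protein-gated rectifier Kir3.3 and the neighbour of Kcnj10 on chromosome 1 (chr1:172320501-172329318, minus strand), had 1.83, 1.22 and 1.22 CPM in medial dKO libraries, against 3.60, 3.30 and 3.23 CPM in medial controls. Its log2 fold change was −1.33 (SE 0.342, adjusted p = 0.0552), so the values of these 2 neighbours had opposite signs in medial tissue.

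Over the 82 tested genes, 9 had medial dKO libraries wholly above the controls, which is 11% against 11.7% of all genes, and 14 had them wholly below, which is 17.1% against 6.47% of all genes. In orbital tissue 5 genes lay wholly above and 4 wholly below the controls, which is 6.1% against 5.56% and 4.88% against 8.47% of all genes. In dorsal tissue 3 lay wholly above and 4 wholly below, which is 3.66% against 7.03% and 4.88% against 3.09%. Only Kcnj10 and Kcnn3 lay wholly above the controls in orbital, medial and dorsal tissue, and only Kcnk4 (TRAAK, a mechanically gated K2P channel) lay wholly below them in each. The shares are 2.44% against 0.513% of all genes above in each region, and 1.22% against 0.352% below. Kcnk4 had 1.28, 1.15 and 1.59 CPM in medial dKO libraries, against 1.76, 4.02 and 3.35 CPM in medial controls, and its log2 fold changes were −1.23 in medial (SE 0.354, adjusted p = 0.085), −0.88 in orbital (SE 0.35, adjusted p = 0.281) and −0.66 in dorsal tissue (SE 0.347, adjusted p = 0.763). Signs were the same in the 3 regions for 27 genes, of which 9 were positive and 18 negative.

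Markers of other cell classes moved with the medial comparison. The 10 neuron markers summed to 5446 to 6208 CPM in medial dKO libraries and 6199 to 8029 CPM in medial controls, with 10 of 10 fitted values negative, a median of −0.43 and 1 called lower. The 10 progenitor markers summed to 1186 to 1854 CPM in medial dKO libraries and 673 to 902 CPM in medial controls, with 10 of 10 positive, a median of 0.99 and 4 called higher. The neuron sums overlapped between the genotypes, and the progenitor sums did not. Sums of 8 interneuron markers, at 587 to 753 CPM in medial dKO libraries and 474 to 539 CPM in medial controls, did not overlap. Of those 8 markers, 4 had positive fitted values. Sums of 4 erythroid genes did not overlap either, at 1455 to 3029 CPM in medial dKO libraries and 774 to 1073 CPM in medial controls. No interneuron or erythroid marker was called. The part of these marker lists in the values of the voltage-gated pores was not tested. Of 20 sodium, calcium and HCN channel genes, 18 were negative in medial tissue, with a median of −0.58, and only Hcn3, a pacemaker channel, was called (log2 fold change −0.87, SE 0.172, adjusted p = 0.0184). Of 18 tested partner subunits and anchors of potassium channels, 15 were negative and none was called, and of 9 pumps and cotransporters none was called.

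In orbital cortex no potassium channel gene passed in either direction, where 0.0374% of all genes did, and in dorsal cortex none passed, where 0.0214% did. At an unadjusted p under 0.05 there were 13 orbital and 5 dorsal genes, which are 15.9% and 6.1% of those tested, against 13.9% and 6.78% of all genes, so these shares were near the background. DESeq2 called Kcnd3, Kcnj10, Kcnn2 and Kcnn3 in orbital tissue, all higher in dKO, and none in dorsal tissue. In orbital tissue 21 of the 28 voltage-gated pores had positive values, with a median of 0.21. In dorsal tissue 23 of 28 were negative, with a median of −0.21.

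Of the orbital values with low p, Kcnd3, the A-type pore Kv4.3, had 38.8, 47.4 and 24.1 CPM in dKO libraries, against 16.8, 25.9 and 9.81 CPM in controls. The groups overlapped, since dKO replicate 3 was below control replicate 2 (log2 fold change 1.08, SE 0.285, adjusted p = 0.155). Kcnq1, best known from heart and epithelia, had 1.02, 1.09 and 1.003 CPM in orbital dKO libraries, against 1.71, 2.76 and 2.49 CPM in controls (log2 fold change −1.16, SE 0.384, adjusted p = 0.217). Kcnh3 had 14.3, 11.5 and 13.9 CPM in orbital dKO libraries, against 16.8, 21.5 and 17.3 CPM in controls (log2 fold change −0.48, SE 0.188, adjusted p = 0.275). Kcnq1 and Kcnh3 did not overlap between genotypes in orbital or in medial tissue.

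Kcnj13 had 7.46, 4.95 and 6.65 CPM in orbital dKO libraries, against 9.97, 13.9 and 17.9 CPM in orbital controls, again without overlap (log2 fold change −1.08, SE 0.488, adjusted p = 0.342). Because it shares exon bases with Gigyf2, its reads cannot be told apart from those of that gene, here and below. The 6 choroid plexus markers summed to 12.2 to 18.5 CPM in orbital dKO libraries and 26.6 to 48.1 CPM in orbital controls, also without overlap, and their part in the Kcnj13 values was not tested. Among the dorsal values were −1.15 for Kcna4 (Kv1.4, A-type), −0.81 for Kcnd1 (Kv4.1, X-linked) and −1.30 for Kcnj12 (Kir2.2), and 0.72 for Kcnip4 and 0.82 for Kcna5 (Kv1.5). Their adjusted p ran from 0.538 to 0.761, and of these only Kcna5 did not overlap between dorsal dKO libraries and dorsal controls.

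When counts were added up over the regions of each row, giving 1 value per row, 83 potassium channel genes were tested and none passed, where 0.0249% of all genes did. At an unadjusted p under 0.05 there were 11, which is 13.3% against 9.03% of all genes, and DESeq2 called Kcnj10, Kcnn2 and Kcnn3. The lowest p values belonged to Kcnn3 with a log2 fold change of 1.41 (SE 0.281, adjusted p = 0.32), Kcnj10 with 2.36 (SE 0.483, adjusted p = 0.323) and Kcnn2 with 0.79 (SE 0.176, adjusted p = 0.349). Kcne1l was at 0.77, Kcnk4 at −0.89, Kcnd1 at −0.73, Kcnj12 at −1.11 and Kcnc4 at −0.49, with adjusted p from 0.411 to 0.528.

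**Figure D4:**
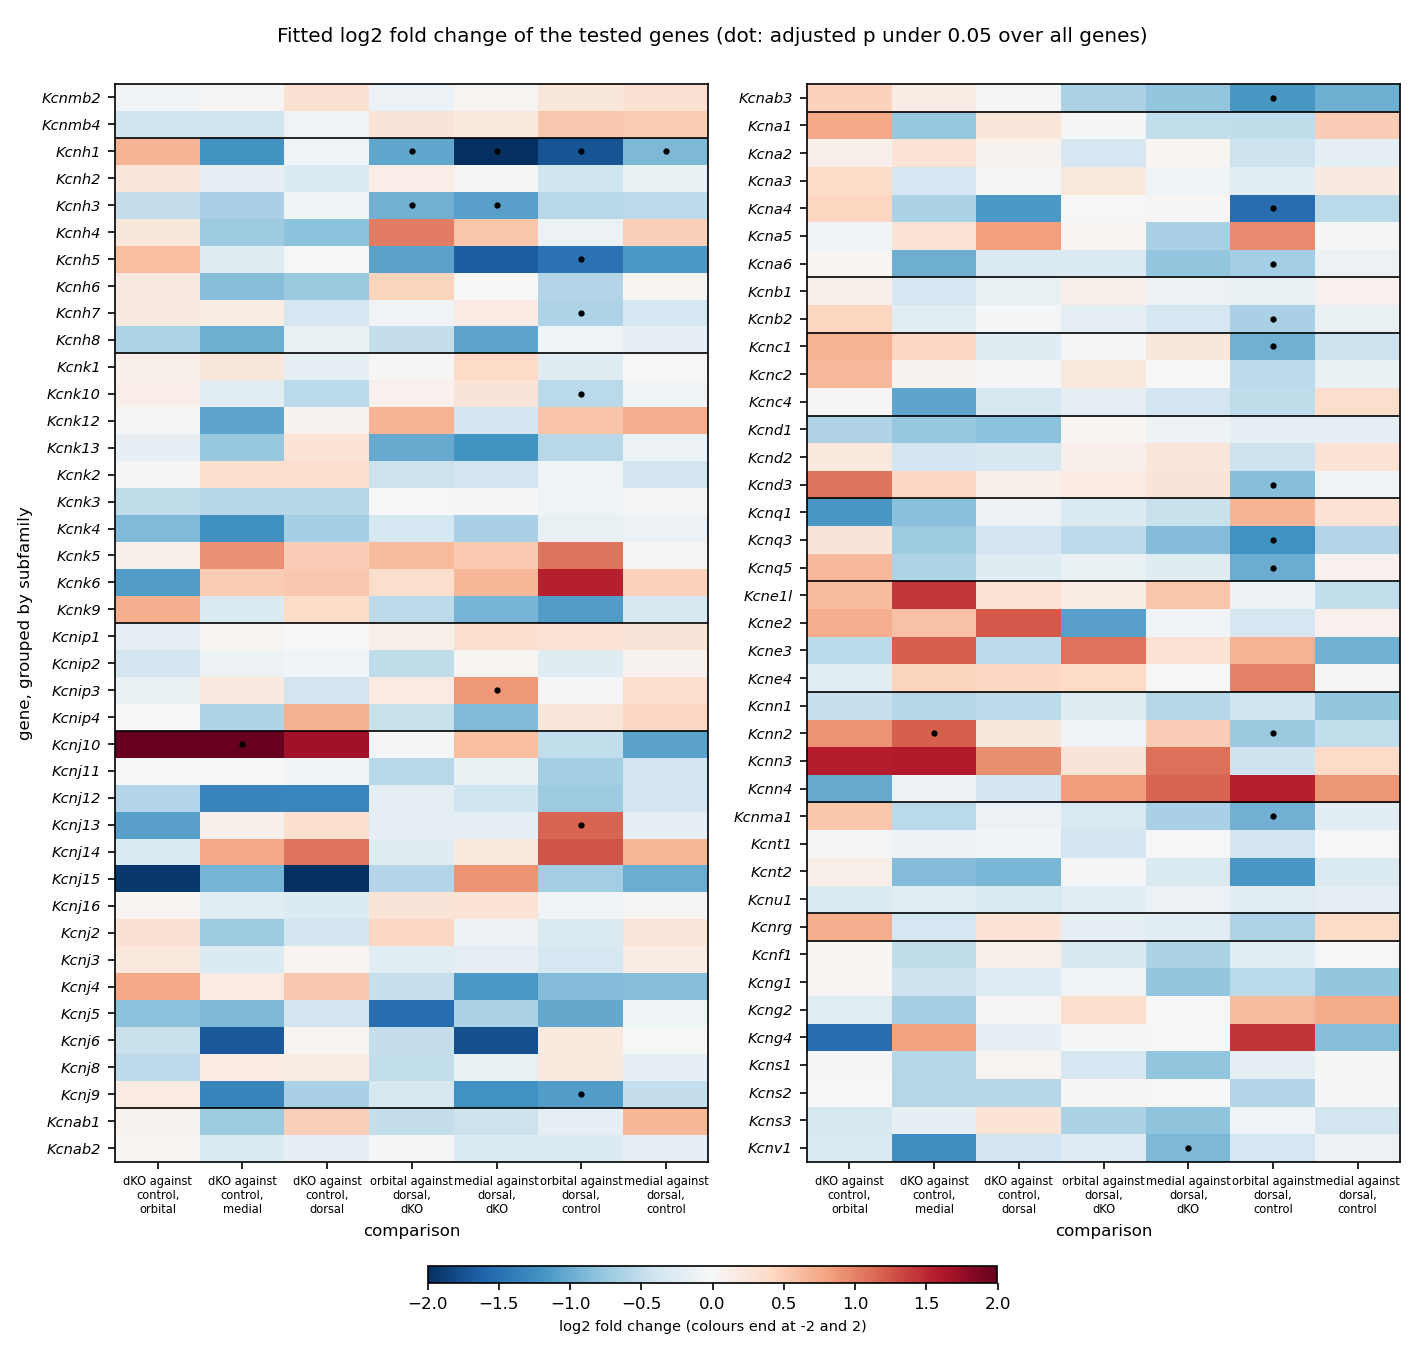
Fitted log2 fold changes of 79 tested genes (rows, grouped by subfamily) in 7 comparisons (columns); red is higher and blue lower in the group named first, and a dot marks an adjusted p under 0.05 over all genes. Dots are most frequent in the column for orbital against dorsal tissue of controls, where 16 genes drawn passed, and 15 of those are blue.

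Regions were compared within rows. In controls, orbital against dorsal tissue gave more calls than the other 2 pairs of regions: 17 potassium channel genes were lower and 1 was higher in orbital libraries, together 22% of those tested, against 15.8% of all genes. On the lower side the share was 20.7%, against 9.44% of all genes, and on the higher side 1.22%, against 6.39%. Voltage-gated pores made up 12 of the 17, and 28 of the 82 genes tested. These included Kcnq3, Kcnq5 and 3 of 8 Kcnh genes (Kcnh1, Kcnh5 and Kcnh7), with Kcna4, Kcna6, Kcnb2, Kcnc1 and Kcnd3. The other 5 were Kcnn2, Kcnma1, Kcnj9, Kcnk10 and the Kv beta subunit Kcnab3. No silent subunit passed.

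Kcnh1 showed the largest of these differences. It had 7.42, 7.85 and 6.14 CPM in orbital controls, against 17.9, 27.3 and 21.8 CPM in dorsal controls, with no overlap (log2 fold change −1.72, SE 0.185, adjusted p = 0.000573). Kcnab3 had 4.21, 4.38 and 2.86 CPM in orbital controls, against 6.36, 9.63 and 7.65 CPM in dorsal controls, also without overlap (log2 fold change −1.16, SE 0.204, adjusted p = 0.00378). Kcnc1, the fast-spiking pore Kv3.1, passed at −0.96 (SE 0.181, adjusted p = 0.00495).

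Kcnj13, whose reads may in part be those of Gigyf2, was the only potassium channel gene that passed as higher in orbital than in dorsal controls. It had 9.97, 13.9 and 17.9 CPM in orbital controls, against 3.27, 6.91 and 8.34 CPM in dorsal controls (log2 fold change 1.16, SE 0.323, adjusted p = 0.0268). The call was lost with the title prefix in place of the row (adjusted p = 0.219), and of the 6 omissions of a control library only that of orbital control replicate 3 kept it. Choroid plexus markers summed to 26.6 to 48.1 CPM in orbital controls and 9.32 to 18.2 CPM in dorsal controls, and meningeal markers to 1181 to 1579 CPM in orbital controls and 598 to 748 CPM in dorsal controls. The 10 neuron markers were all negative in this comparison, with a median of −0.57 and 6 called lower. Sums without overlap were also those of progenitors (1011 to 1227 CPM in orbital and 756 to 843 CPM in dorsal controls), astrocytes (397 to 597 CPM in orbital and 268 to 375 CPM in dorsal controls), microglia (173 to 202 CPM in orbital and 87.2 to 101.2 CPM in dorsal controls), pericytes (244 to 275 CPM in orbital and 130 to 148 CPM in dorsal controls) and erythroid genes (1607 to 2059 CPM in orbital and 553 to 1135 CPM in dorsal controls). Their part in the channel values was not tested.

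Genes that work beside potassium channels were counted in the same comparison. Of 18 tested subunits and anchors, 9 were lower in orbital than in dorsal controls and none was higher, led by Cntn2, an adhesion protein of the juxtaparanodal Kv1 complex, at −2.06 (SE 0.284, adjusted p = 0.00159). Abcc9, the sulfonylurea receptor of KATP channels, was at −1.36 (SE 0.215, adjusted p = 0.00247), and the scaffold Dlg2 at −0.96 (SE 0.177, adjusted p = 0.00464). Of 20 sodium, calcium and HCN channel genes 8 were lower and none higher, among them Scn2a, the main axonal sodium channel of young neurons, at −1.19 (SE 0.206, adjusted p = 0.00351). Of 9 pumps and cotransporters 3 were lower and 1 was higher.

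The calls depended on single libraries. Without dorsal control replicate 3, 5 potassium channel genes passed in this comparison (Kcnab3, Kcnc1, Kcnh1 and Kcnma1 among them), and without dorsal control replicate 1, 11 did. Those 4 also passed without each of the other control libraries in turn. With the title prefix in place of the row, only Kcnab3 and Kcnh1 passed.

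Medial controls differed from orbital controls in 9 genes, 8 higher and 1 lower, which is 11% against 9.02% of all genes. On the higher side the share was 9.76%, against 4.48% of all genes, and on the lower side 1.22%, against 4.54%. The higher ones included Kcna1 (Kv1.1), Kcnab1, Kcnd2, Kcnh1, Kcnk10, Kcnma1 and Kcnq5, and the lower one was Kcnj13. Kcnd2 had 36.9, 45.7 and 52.9 CPM in medial controls, against 27.3, 34.9 and 25.1 CPM in orbital controls, without overlap (log2 fold change 0.70, SE 0.144, adjusted p = 0.0136). Kcnq5 had 19.9, 26.4 and 32.3 CPM in medial controls, against 17.2, 10.9 and 11.1 CPM in orbital controls, also without overlap (log2 fold change 1.08, SE 0.251, adjusted p = 0.0212). Kcnj13, with the same limit of exon bases shared with Gigyf2, was at −1.33 (SE 0.329, adjusted p = 0.0265). This comparison and the one before share the orbital controls. All 10 neuron markers had positive values in medial against orbital controls, and 4 were called higher. Called lower were 3 microglia markers and 2 each of progenitors, pericytes, meninges and choroid plexus. So was 1 each of astrocytes, striatal neurons and erythroid genes. Choroid plexus markers summed to 6.23 to 17.9 CPM in medial and 26.6 to 48.1 CPM in orbital controls. The part of these markers was not tested. Of the library omissions, 2 genes passed without orbital control replicate 2, orbital control replicate 3 or medial control replicate 2, 4 without medial control replicate 3, 6 without orbital control replicate 1 and 12 without medial control replicate 1.

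Medial controls differed from dorsal controls in 2 genes, both lower, which is 2.44% against 0.491% of all genes and 0.283% on the lower side. Kcnh1, of these, had 9.43, 16.8 and 11.2 CPM in medial controls, below its 3 dorsal controls (log2 fold change −0.89, SE 0.18, adjusted p = 0.048). Neither of the 2 genes passed when any of the 6 libraries was left out.

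The same regions were compared within the double mutants. Medial dKO tissue differed from dorsal dKO tissue in 5 genes, which is 6.1% against 2.09% of all genes, with 4 lower (4.88% against 1.22%) and 1 higher (1.22% against 0.87%). Lower in medial tissue were, among others, Kcnh1 at −2.01 (SE 0.188, adjusted p = 0.000837), Kcnh3 at −1.09 (SE 0.184, adjusted p = 0.00885) and Kcnv1 at −0.89 (SE 0.178, adjusted p = 0.0199). Higher was Kcnip3, a calcium-binding Kv4 partner, with 96.5, 86.0 and 93.9 CPM in medial dKO libraries, against 61.9, 37.6 and 48.8 CPM in dorsal dKO libraries (log2 fold change 0.86, SE 0.159, adjusted p = 0.0143). For none of the 5 did the medial and dorsal dKO libraries overlap. Kcnh1 passed without each of the 6 libraries in turn. Kcnip3 passed only without medial dKO replicate 1, Kcnh3 only without medial dKO replicate 2 or dorsal dKO replicate 3, and Kcnv1 only without dorsal dKO replicate 2.

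Orbital dKO tissue differed from dorsal dKO tissue in 2 genes, both lower, which is 2.44% against 0.486% of all genes and 0.342% on the lower side. Kcnh1 had 14.6, 13.7 and 6.49 CPM in orbital dKO libraries, against 28.6, 21.6 and 16.9 CPM in dorsal dKO libraries (log2 fold change −1.05, SE 0.182, adjusted p = 0.0178). Kcnh3 had 14.3, 11.5 and 13.9 CPM in orbital dKO libraries, against 24.5, 25.6 and 24.3 CPM in dorsal dKO libraries (log2 fold change −0.96, SE 0.184, adjusted p = 0.0344). Neither gene overlapped. Of the 6 fits that left out a library, only that without orbital dKO replicate 2 kept a call, that of Kcnh1. Medial and orbital dKO tissue differed in no potassium channel gene, where 0.016% of all genes passed, with 14 at an unadjusted p under 0.05 (17.1%, against 7.29% of all genes) and 4 called by DESeq2 (Kcnh1, Kcnip3 and Kcnv1 among them).

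**Figure D5:**
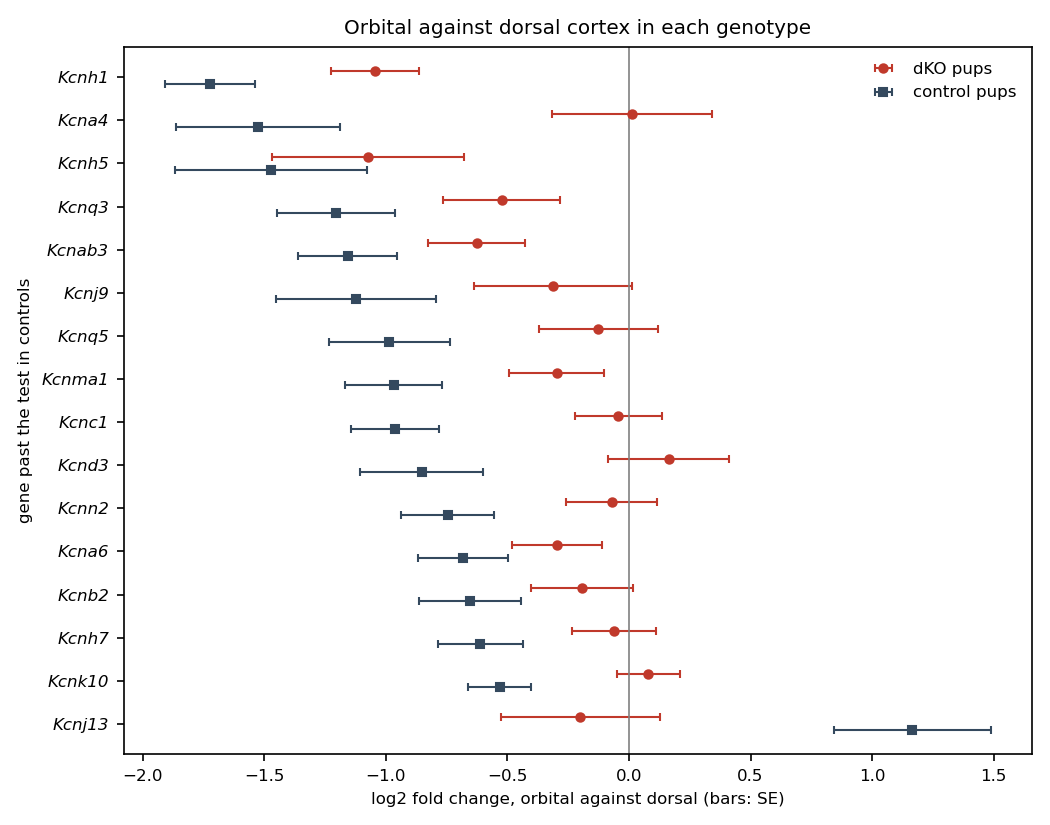
Fitted log2 fold change of orbital against dorsal tissue, with its standard error, in dKO pups (red) and control pups (dark) for 16 genes that passed in controls. The dKO value lies nearer 0 for each of the 15 genes drawn that were lower in orbital controls, of which 12 are negative in dKO too; the genes were chosen by the control value, so this is a description.

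For the 17 genes lower in orbital than in dorsal controls, 14 dKO values were negative too and 17 lay nearer 0. Kcnc1, for example, was at −0.04 (SE 0.179) in dKO and −0.96 (SE 0.181) in controls, and Kcna4 was at 0.01 (SE 0.329) in dKO and −1.52 (SE 0.338) in controls. The genes were chosen by their control values, so a smaller value in the other genotype is no finding. The difference itself, tested as the dKO effect in orbital against dorsal tissue, passed for none of the 82 genes and for 0% of all genes, with 15 of them at an unadjusted p under 0.05 (18.3%, against 12.6% of all genes). For the 18 genes the adjusted p of that difference ran from 0.218 to 0.834, and DESeq2 called Kcnc1 and Kcnk10. The dKO effect in medial against dorsal tissue likewise passed for none, where 0% of all genes passed, with 15 at an unadjusted p under 0.05 (18.3%, against 5.17% of all genes) and Kcnh1 and Kcnj10 called by DESeq2.

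The dKO effect differed between medial and orbital tissue for 2 genes, Kcnh1 and Kcna1, which is 2.44% against 1.47% of all genes and 0.785% on the negative side. At an unadjusted p under 0.05, 20 genes had a more negative dKO effect in medial than in orbital tissue and 3 a more positive one, which are 24.4% and 3.66% against 11% and 9.54% of all genes. The median difference was −0.32 over the 82 genes and 0.01 over all genes.

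Kcnh1 (chr1:192190774-192510159, plus strand, GRCm38) was lower in medial dKO libraries than in medial controls, as given above, whereas in orbital tissue it had 14.6, 13.7 and 6.49 CPM in dKO libraries, against 7.42, 7.85 and 6.14 CPM in controls. The orbital groups overlapped through dKO replicate 3. The difference of the 2 effects was −1.80 on the log2 scale (SE 0.26, adjusted p = 0.0184). In dorsal tissue, where it was highest, it had 28.6, 21.6 and 16.9 CPM in dKO libraries, against 17.9, 27.3 and 21.8 CPM in controls (log2 fold change −0.08, SE 0.305, adjusted p = 0.99). The difference missed the threshold with the title prefix in place of the row (adjusted p = 0.213) and without replicate 1 or 2 of the orbital or medial dKO libraries (adjusted p 0.0632 to 0.116).

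Kcna1 (chr6:126640397-126646384, minus strand, GRCm38) encodes Kv1.1, a low-threshold pore of axons. It had 8.28, 4.60 and 4.67 CPM in medial dKO libraries, against 11.5, 8.41 and 7.42 CPM in medial controls. In orbital tissue it had 12.4, 8.84 and 4.04 CPM in dKO libraries, against 7.28, 3.99 and 3.52 CPM in controls. Groups overlapped in both regions, replicate 1 was the highest of each group, and neither effect passed alone (−0.76, SE 0.259, adjusted p = 0.151 in medial; 0.76, SE 0.26, adjusted p = 0.225 in orbital). Their difference was −1.47 (SE 0.332, adjusted p = 0.0465). It missed the threshold in 9 of the 12 fits that left out a library, with adjusted p up to 0.179.

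Promoters were read because the mutated receptors bind DNA at repeats of the core motif AGGTCA. RefSeq (GRCm38.p6) gave promoters for 69 of the 94 genes, 94 windows in all, each the 250 bases before a start. The motif, searched on both strands, was in 6 of the 94 windows (6.38%, those of Kcna10, Kcnf1, Kcnh1, Kcnip4, Kcnj16 and Kcnk10), against 14.0% of all 32851 windows. Direct repeats of it spaced by 1, 2 or 5 bases were in none of the 94 and in 0.0335%, 0.00913% and 0.00913% of all windows. The windows of Kcnj10, called in medial tissue (chr1:172340960-172341209, plus strand), and of Kcnh1, whose effect differed between regions (chr1:192190527-192190776, plus strand), are printed 5′ to 3′, with the motif in capitals where there is one.
Kcnj10: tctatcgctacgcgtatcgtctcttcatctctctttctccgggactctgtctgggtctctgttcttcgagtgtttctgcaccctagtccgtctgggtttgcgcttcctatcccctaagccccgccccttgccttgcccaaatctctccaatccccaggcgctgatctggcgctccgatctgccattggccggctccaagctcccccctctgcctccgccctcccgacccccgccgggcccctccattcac
Kcnh1: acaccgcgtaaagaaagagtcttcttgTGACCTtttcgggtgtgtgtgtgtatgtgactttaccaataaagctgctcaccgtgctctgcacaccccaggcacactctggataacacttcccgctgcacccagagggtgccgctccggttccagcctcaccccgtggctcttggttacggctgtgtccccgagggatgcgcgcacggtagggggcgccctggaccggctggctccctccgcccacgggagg
The motif of Kcnh1 stands in its reverse form, TGACCT, 223 bases before the start, and the Kcnj10 window holds none of these letters in a row in either direction. A match of letters is not a binding site, and none in this window says nothing of sites elsewhere.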

How the data were processed

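The values deposited are unnormalised fragment counts for each gene. Per the file headers, the authors counted read pairs over Ensembl exons of GRCm38 with featureCounts 1.6.2, without strand, and STAR 2.6 is named in the submitters' processing notes. Gene length in bases is the summed exon length that the authors deposited beside the counts. Symbols were paired with 54409 of 54532 genes. Another 6 columns of values matched no sample and were not used. The members and gene lists were chosen with earlier results of these data known.

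Counts were tested with edgeR 4.0.16 in R 4.3.3 (TMM scaling, genes kept by filterByExpr with a minimum count of 10 and total of 15, quasi-likelihood F tests, Benjamini-Hochberg adjustment over all genes kept, threshold 0.05), two-sided. The genotype fits used all 18 libraries, with the group means and the title prefix. The region fits and the differences of effects used the row of 3 regions as a block. Deviations of libraries of the same row correlated at 0.204 to 0.650, over 0.1 in 18 of 18 pairs. The genotype p-values by region do not take account of this correlation. CPM and RPKM were computed from the counts over library totals of 28957325 to 93093398. Fold changes are log2 with SE taken from the F statistic. Differences within a title prefix are on log2 CPM, computed with a prior of 2 counts. DESeq2 1.42.0, other scaling, no filter, other terms and the omission of each library were alternatives. Each kind of fit was also run on simulated counts, drawn independently for each library. Those runs therefore do not cover the correlation within rows. Named genes were those past the threshold in a dKO comparison or a difference of effects, the 4 positive and 4 negative ones with the lowest p in each dKO comparison (mean of at least 1 CPM) and, past the threshold, in each control region comparison, the leading gene of each subfamily and the 10 highest by mean RPKM. Any others were picked with their values known. Promoters came from RefSeq, GRCm38.p6, and plots from matplotlib 3.10.9. Some genes chosen by this rule are not reported here, in text or plots, but they remain in all fits and counts.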

Additional observations from a re-analysis of the deposited data

Results flagged for a closer look

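The dKO effect on Kcnh1 differed between medial and orbital tissue by −1.80 on the log2 scale (SE 0.26, adjusted p = 0.0184, edgeR quasi-likelihood test of the difference). The 3 medial dKO libraries were below the 3 medial controls, and 2 of the 3 orbital dKO libraries were above the orbital controls. For Kcna1 the same difference was −1.47 (SE 0.332, adjusted p = 0.0465), with the medial effect negative and the orbital effect positive. Both were singled out because the difference between the regions was itself tested and passed.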

How the results depend on the processing

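Counts of potassium channel genes called moved with the tool and filter, and no called value changed sign. The shares of all genes called under these other settings are not given, here or for the DESeq2 calls above. These counts therefore cannot be read against a background. With no filter on low counts, 2 genes passed for dKO against control in orbital tissue, 6 in medial tissue and 1 with regions summed. Between control regions 7 passed for medial against dorsal, 25 for orbital against dorsal and 17 for medial against orbital. Between dKO regions 17 passed for medial against dorsal, 4 for orbital against dorsal and 3 for medial against orbital. For the differences of effects 2 passed for medial against dorsal, 4 for orbital against dorsal and 12 for medial against orbital. With DESeq2 the counts in the same order were 4, 12 and 3 for genotype, 4, 27 and 18 between control regions, 16, 4 and 4 between dKO regions, and 2, 2 and 11 for the differences. The same replicate numbers of dKO and control correlated at −0.0730 to 0.321, over 0.1 in 5 of 9 pairs, among them the 3 pairs of replicate 1. The 2 libraries of each of the 9 pairs share a title prefix. Beyond that prefix the labels do not pair the samples. With that replicate block 7 genes passed in medial tissue (Kcnc4, Kcne1l, Kcnh1, Kcnj9, Kcnj10, Kcnn2 and Kcnv1). In medial tissue 1 passed with no batch term and 1 on the medial libraries alone. A sex term, chosen after seeing the data, gave 1 in orbital tissue (Kcnj10) and 2 in medial tissue (Kcnj10 and Kcnn2). It gave 0 in dorsal tissue and 0 with regions summed. All controls expressed Ddx3y, so that term rests on the dKO libraries alone. With no replicate block, the prefix replacing the row pairing, 0, 2 and 0 passed between control regions (medial against dorsal, orbital against dorsal, medial against orbital), 3 and 0 between dKO regions (medial and orbital against dorsal) and 0 for the medial against orbital difference. Leaving out 1 library each gave 0 to 0 for orbital, dorsal and summed genotype effects, 1 to 5 for medial, 0 to 1, 5 to 15 and 2 to 12 between control regions in that order, 2 to 4, 0 to 1 and 0 between dKO regions, and 0, 0 and 0 to 8 for the differences. The cause of these moves was not tested. With 3 libraries a group and control libraries of unequal depth, genes of few counts are measured least precisely.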

Other observations

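Potassium channel genes also lie near Rarb. Of the 4 on chromosome 14, 3 are within 10 Mb of it: Kcnk5 at 3.32 Mb, Kcnk16 at 3.44 Mb and Kcnma1 at 6.47 Mb. Kcnk5, an alkaline-sensitive K2P channel, had log2 fold changes of 0.91 in medial (adjusted p = 0.461), 0.50 in dorsal (adjusted p = 0.926) and 0.11 in orbital tissue (adjusted p = 0.952, edgeR quasi-likelihood test). Kcnma1 had 25.1, 35.88 and 34.3 CPM in medial dKO libraries, against 35.94, 54.7 and 40.4 CPM in medial controls, which did not overlap by a narrow gap (log2 fold change −0.54, SE 0.288, adjusted p = 0.409). It was at 0.55 in orbital (adjusted p = 0.405) and −0.12 in dorsal tissue (adjusted p = 0.978).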
